A study of Mus musculus with 27 samples.

Results

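The genes described here are the sensors of foreign and self nucleic acids, their adaptors and the RNA editing enzyme *Adar* in immortalized mouse embryonic fibroblasts (iMEFs) that carry a conditional knockout (cKO) allele of *Setdb1*. The members were chosen by symbol and are *Ddx58* (which encodes RIG-I), *Ifih1* (MDA5), *Dhx58* (LGP2), *Mavs*, *Tmem173* (STING), *Tlr3*, *Zbp1*, *Mb21d1* (cGAS), *Eif2ak2* (PKR) and *Adar*. They are 10 of the 22612 genes listed in at least 1 library of the series, and all 10 were tested in each experiment. The study asked how the histone methyltransferase Setdb1 silences endogenous retroviruses in differentiated cells. RNA was sequenced in 27 libraries of 3 experiments, and the values are FPKM, fragments scaled by transcript length and by the mapped fragments of the library.

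All 27 libraries come from *Setdb1* cKO iMEFs, whose *Setdb1* gene is deleted after addition of 4-hydroxytamoxifen (4OHT). The paper's methods name 1 selected clone, so no result extends to a second line, and untreated cells carry the conditional allele as well. In the total RNA experiment (9 libraries, rRNA removed), 3 libraries are from untreated cells, 3 are labelled 4OHT day 5 (harvested at day 5, with 4OHT for the first 4 days) and 3 are labelled long-term KO. For the latter, the labels give a time of more than 2 weeks after 4OHT, and the paper's methods give more than 1 week. The siRNA experiment has 8 libraries, 2 each of control siRNA (siCtrl), siRNA against *Dnmt1* (siDnmt1), 4OHT + siCtrl and 4OHT + siDnmt1, the last 2 groups at day 6. *Dnmt1* encodes the maintenance DNA methyltransferase. The inhibitor experiment has 10 libraries, 2 each of untreated cells, 24 h of the histone deacetylase inhibitor TSA at 150 nM, 24 h of the MEK inhibitor PD0325901 at 1 µM, 4OHT day 6, and 4OHT day 6 with PD0325901 for the last 24 h. Deposited intervals and lengths of single-exon genes roughly imply 36.86 to 41.91 M fragments for the total RNA libraries. They imply 13.75 to 15.58 M for the siRNA libraries and 10.87 to 12.67 M for the inhibitor libraries. These are estimates and not read counts, and the paper states a larger number of paired-end reads for total RNA.

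Cytosolic RNA is read by the RIG-I-like receptors, which signal through the mitochondrial adaptor Mavs, while cytosolic DNA is read by cGAS, whose product cGAMP activates STING. Tlr3 reads double-stranded RNA in endosomes, Zbp1 binds Z-form nucleic acid and can start cell death, PKR halts translation when it binds double-stranded RNA, and Adar converts adenosine to inosine in double-stranded RNA, which keeps self RNA from being sensed. In fibroblasts these routes lead to type I interferon, and several of the sensors are themselves interferon-induced genes.

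Several libraries go against their labels or stand apart, and groups are named here by their labels. *Setdb1* was at 5.95, 5.53 and 5.16 FPKM in the untreated total RNA libraries. The label 4OHT day 5 goes with 4.16, 4.20 and 6.52 FPKM, and the label long-term KO with 7.24, 7.32 and 6.96 FPKM. No untreated library was as high as day 5 replicate 3 or any long-term KO library, and a gene-level FPKM does not show whether part of the gene was deleted. In the siRNA experiment, *Setdb1* was at 7.40 and 6.48 FPKM with siCtrl, 6.08 and 5.54 with siDnmt1, 7.58 and 5.00 under the label 4OHT + siCtrl, and 5.40 and 6.94 under the label 4OHT + siDnmt1. Both groups labelled 4OHT overlapped siCtrl and siDnmt1, and the siDnmt1 libraries were below the siCtrl ones. In the inhibitor experiment it was at 8.76 and 10.1 FPKM in untreated cells, 9.56 and 9.0 with TSA, 5.34 and 5.56 with PD0325901, 0 and 5.30 under the label 4OHT day 6, and 0 and 0 with 4OHT + PD0325901. A listed 0 may be a failed estimate, and the 1 library labelled 4OHT with a value above 0 was near the PD0325901 libraries without 4OHT. *Dnmt1* followed them in every siRNA library, at 80.5 and 73.4 FPKM with siCtrl, 12.2 and 10.6 with siDnmt1, 78.7 and 78.3 with 4OHT + siCtrl, and 12.2 and 11.4 with 4OHT + siDnmt1.

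The library labelled 4OHT + siCtrl replicate 2 lay nearer to the siCtrl mean than to replicate 1 of its own group for 9 of the 10 members, all but *Mavs*, with the joined locus used for *Ddx58*. Other genes separated it from siCtrl in the direction of replicate 1. *Pdgfra* was at 2.79 and 2.00 FPKM in 4OHT + siCtrl replicates 1 and 2, against 22.9 and 21.5 FPKM with siCtrl. *Col1a1* was at 317 and 416 FPKM in these replicates and at 1106 and 1148 FPKM with siCtrl. The siRNA counts of members called are therefore given with and without this library. It was singled out by the member values themselves, so calls gained without it are not independent of that choice. Results of other genes in that experiment include it. For the library labelled PD0325901 replicate 2, one line of the labels names 4OHT + PD0325901 instead, and the sample description was followed. Its member values differed from those of PD0325901 replicate 1 by up to 2.86-fold (*Zbp1*, 0.903 against 0.315 FPKM). Every member was lower in it than in both 4OHT + PD0325901 libraries, where *Zbp1* was at 96.1 and 236 FPKM. For *Mavs* this difference was small.

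The fibroblast label was checked on marker genes. Of 8 fibroblast markers, 7 or 8 reached 1 FPKM in every library, and their summed level was 1415 to 2345 FPKM in total RNA, 1844 to 4048 FPKM in the siRNA libraries and 2433 to 4971 FPKM in the inhibitor libraries. *Vim* was at 867 to 908 FPKM in the 3 untreated total RNA libraries, where it was the most abundant of the 8. Of 8 haematopoietic markers, at most 1 reached 1 FPKM in any library, and that was *Cd68*; their sums were 0.0269 to 3.94, 3.21 to 8.81 and 3.74 to 67.4 FPKM in the 3 experiments. *Cd3e* was listed at 0 in all 27 libraries, and *Ptprc* was at 0.131 FPKM or less in each. The sums of 4 endothelial markers were 0.0362 to 0.180, 0.237 to 0.870 and 0.129 to 2.18 FPKM, and those of 4 epithelial markers 0.335 to 2.66, 0.677 to 43.3 and 0.457 to 40.5 FPKM. For these 3 kinds of marker the highest sums were in libraries labelled 4OHT in the siRNA experiment and in TSA libraries in the inhibitor experiment. In total RNA, *Cd68* has a value in 2 of the 9 libraries, so the haematopoietic sums there are not comparable between libraries, and the lowest fibroblast sum, 1415 FPKM, is of 7 markers with a value.

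The RefSeq promoter table (GRCm38.p6, 250 bases before to 50 bases after each start) holds 9 promoters of 7 of the 10 members, *Mb21d1* among them as *Cgas* and *Adar* with 3. *Dhx58*, *Zbp1* and *Tmem173* have no entry. Since 8 of the members moved together in the libraries, as described below, the promoters were searched on both strands for the core of the interferon-stimulated response element (ISRE, GAAANNGAA, on the other strand TTCNNTTTC), the GAS element (TTCNNNGAA, which reads the same on both strands) and the AP-1 element (TGANTCA, likewise). The ISRE core was in 4 of the 9 promoters, those of *Ddx58*, *Ifih1*, *Eif2ak2* and the third of *Adar*. Those 4 are shown with that of *Mavs*, a member that did not move with them. Capitals mark the ISRE cores, and each sequence runs 5′ to 3′ along its gene. They lie at chr4:40239776-40240075 (minus strand, *Ddx58*), chr2:62646206-62646505 (minus, *Ifih1*), chr17:78882523-78882822 (minus, *Eif2ak2*), chr3:89730468-89730767 (plus, the third of *Adar*) and chr2:131233813-131234112 (plus, *Mavs*).
Ddx58: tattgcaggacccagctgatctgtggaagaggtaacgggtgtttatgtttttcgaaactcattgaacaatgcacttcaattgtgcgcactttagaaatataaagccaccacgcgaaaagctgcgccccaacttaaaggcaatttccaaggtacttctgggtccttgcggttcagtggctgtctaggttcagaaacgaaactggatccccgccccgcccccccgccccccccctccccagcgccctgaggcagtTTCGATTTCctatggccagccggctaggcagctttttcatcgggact
Ifih1: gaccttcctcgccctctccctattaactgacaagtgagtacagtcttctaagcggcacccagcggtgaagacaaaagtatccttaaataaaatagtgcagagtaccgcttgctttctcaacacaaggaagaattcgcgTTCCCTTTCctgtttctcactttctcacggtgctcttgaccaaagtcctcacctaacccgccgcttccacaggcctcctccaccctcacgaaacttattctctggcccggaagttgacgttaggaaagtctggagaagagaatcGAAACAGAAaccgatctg
Eif2ak2: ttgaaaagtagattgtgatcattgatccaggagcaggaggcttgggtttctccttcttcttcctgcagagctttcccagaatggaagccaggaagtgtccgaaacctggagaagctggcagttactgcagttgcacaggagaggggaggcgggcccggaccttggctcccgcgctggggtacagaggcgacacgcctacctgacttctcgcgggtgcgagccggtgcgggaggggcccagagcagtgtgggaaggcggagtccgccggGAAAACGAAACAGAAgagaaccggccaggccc
Adar, the third: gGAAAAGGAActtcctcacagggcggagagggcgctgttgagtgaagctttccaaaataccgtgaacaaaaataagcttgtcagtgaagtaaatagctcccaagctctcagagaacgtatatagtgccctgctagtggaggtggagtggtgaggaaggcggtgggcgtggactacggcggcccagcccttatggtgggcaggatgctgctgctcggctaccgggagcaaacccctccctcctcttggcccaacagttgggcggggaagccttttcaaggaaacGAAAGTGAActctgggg
Mavs: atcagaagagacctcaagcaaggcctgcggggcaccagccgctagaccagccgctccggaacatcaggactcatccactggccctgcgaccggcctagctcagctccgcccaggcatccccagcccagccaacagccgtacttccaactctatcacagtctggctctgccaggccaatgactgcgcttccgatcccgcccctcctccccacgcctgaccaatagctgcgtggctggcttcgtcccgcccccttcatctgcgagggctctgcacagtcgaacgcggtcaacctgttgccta

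In *Ddx58* the core starts 4 bases into the transcript, counting the first transcribed base as 1. *Ifih1* has 1 core at position -112 and 1 at position 33. *Eif2ak2* has a pair that overlap, at positions 19 and 25, and a GAS element at -178. The third *Adar* promoter has cores at -249 and 34 and a GAS element at 23, which overlaps neither. *Mavs*, *Tlr3*, *Mb21d1* and the first and second *Adar* promoters hold no ISRE core in this window, and no member promoter holds the AP-1 letters. Of all 32851 promoters in the table, 8.56% hold the ISRE core, 8.30% the GAS element and 7.81% the AP-1 element. The number of CG dinucleotides was 15 in *Ddx58*, 14 in *Ifih1*, 17 in *Eif2ak2*, 6 in the first *Adar* promoter, 34 in the second *Adar* promoter, 12 in the third *Adar* promoter, 19 in *Mavs*, 10 in *Tlr3* and 16 in *Mb21d1*, with a median of 7.0 over all promoters (quartiles 3 and 20). A match of these letters is a description of the sequence and not a bound site.

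Among untreated total RNA libraries, the levels per length formed an order. *Tmem173* was highest, at 28.6 to 33.6 FPKM, and *Eif2ak2* next, at 24.3 and 24.5 FPKM in the 2 libraries with a value. *Mavs* was at 8.77 to 10.1 FPKM, above *Adar* (5.66 to 6.04) and *Mb21d1* (5.32 to 5.99), whose ranges overlapped. *Ddx58* followed at 4.55 to 4.86 FPKM and *Ifih1* at 1.10 to 1.34 FPKM. *Tlr3* (0.753 to 0.812) and *Dhx58* (0.639 to 0.782) overlapped, and *Zbp1* was lowest, at 0.133 to 0.362 FPKM. Over all 27 libraries, *Zbp1* spanned the widest range of the 10 members, from 0.0407 to 414 FPKM, and *Mavs* the narrowest, from 7.67 to 29.1 FPKM. The plot of FPKM by library shows these spans.

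**Figure D1:**
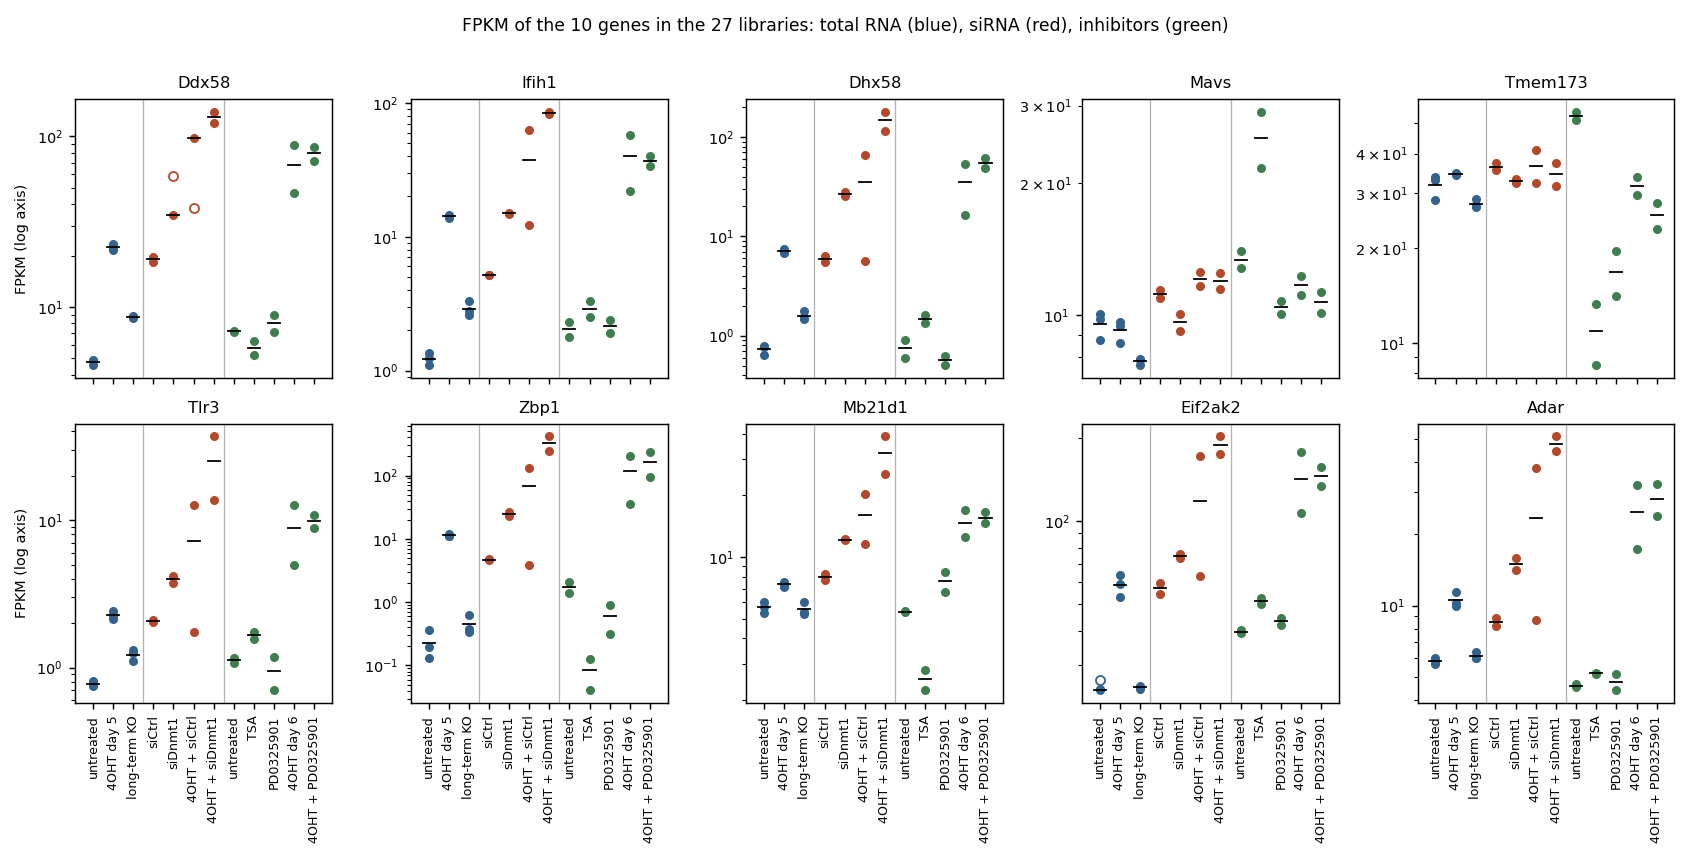
FPKM (log axis) of the 10 members in each of the 27 libraries; each dot is 1 library, the line is the group mean and open dots are libraries in which the gene's locus was joined with a neighbour. *Mavs* stays between 7.67 and 29.1 FPKM, whereas *Zbp1* runs from 0.0407 FPKM with TSA to 414 FPKM with 4OHT + siDnmt1.

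The comparison of 4OHT day 5 with untreated cells asks what changes after 4OHT, which is given to induce the deletion. No library is from 4OHT-treated cells without the conditional allele. In every comparison with 4OHT, effects of 4OHT itself therefore cannot be told apart from those of the deletion. In the libraries labelled 4OHT day 5, all 3 RIG-I-like receptors, *Tlr3*, *Zbp1* and *Eif2ak2* were higher by at least 2-fold. *Adar* and *Mb21d1* were higher by less than 2-fold, and the adaptors *Mavs* and *Tmem173* changed little. A gene was called when limma gave an adjusted p under 0.05 on the log2(FPKM + 0.1) scale together with a change of 2-fold or more. By this rule 6 of the 10 members were called, all higher, against 3.36% of the 10362 genes tested. *Zbp1* is among the 6, and it passed the filter through the day 5 libraries alone, so its call is not independent of the filter. Of 8 fibroblast markers 2 were called lower, and their part in the member values was not tested. The median log2 fold change was 1.34 over the members and 0.00 over all genes tested. These p-values measure the spread between libraries, which may be technical, since nothing in the labels says that replicates were separate cultures. A higher value in bulk RNA does not tell more RNA per cell from more cells with the RNA.

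*Ddx58* (chromosome 4 from 40150810 to 40186858, mm9) encodes RIG-I, which binds RNA with a 5′ triphosphate. It was at 4.84, 4.86 and 4.55 FPKM in untreated libraries, 21.7, 23.3 and 22.3 FPKM at 4OHT day 5, and 8.64, 8.76 and 8.87 FPKM in long-term KO. The 3 groups did not overlap, with day 5 highest and long-term KO between the other groups. At day 5 the log2 fold change reached 2.22 (standard error, SE, 0.04; adjusted p = 2.99e-08). *Ifih1* (chromosome 2 from 62433850 to 62484312) encodes MDA5, which binds long double-stranded RNA. Its level was 1.34, 1.25 and 1.10 FPKM untreated, 14.2, 14.6 and 13.8 FPKM at day 5, and 2.77, 3.32 and 2.61 FPKM in long-term KO. Again the groups were separate and in the same order. Its log2 fold change at day 5 was 3.43 (SE 0.10, adjusted p = 2.61e-07), and the mean was 11.5 times that of untreated cells. *Dhx58* (chromosome 11 from 100556198 to 100565585) encodes LGP2, which lacks signalling domains and modulates the other receptors. It was at 0.639, 0.782 and 0.762 FPKM untreated, 6.98, 7.46 and 6.77 FPKM at day 5, and 1.76, 1.53 and 1.46 FPKM in long-term KO. No library of one group reached another group, and the log2 fold change at day 5 was 3.12 (SE 0.10, adjusted p = 3.59e-07). In untreated replicate 3 the deposited interval of *Dhx58*, 0 to 2.31 FPKM, is wider than in the other untreated replicates.

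The adaptors did not follow the receptors. *Mavs* (chromosome 2 from 131059799 to 131073760) encodes the protein through which RIG-I and MDA5 signal. It was at 10.1, 9.79 and 8.77 FPKM untreated, 8.61, 9.64 and 9.42 FPKM at day 5, and 7.93, 7.67 and 7.90 FPKM in long-term KO. Untreated and day 5 libraries overlapped, and the long-term KO libraries were below both. The log2 fold change of *Mavs* at day 5 was -0.05 (SE 0.06, adjusted p = 0.596). *Tmem173* encodes STING, the adaptor that cGAMP activates. Its level was 33.0, 33.6 and 28.6 FPKM untreated, 34.4, 34.8 and 34.1 FPKM at day 5, and 27.5, 28.7 and 27 FPKM in long-term KO. The day 5 libraries were above every untreated library, but by little, with a log2 fold change of 0.12 (SE 0.06, adjusted p = 0.161).

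Among the other sensors, *Tlr3* (chromosome 8 from 46481019 to 46495893), the endosomal receptor, was at 0.753, 0.812 and 0.766 FPKM untreated, 2.26, 2.41 and 2.12 FPKM at day 5, and 1.31, 1.26 and 1.11 FPKM in long-term KO. The groups were separate, and the log2 fold change at day 5 was 1.43 (SE 0.09, adjusted p = 1.75e-05); with a pseudocount of 1 it was 0.88 and not called. *Zbp1* (chromosome 2 from 173032114 to 173044423), the sensor of Z-form nucleic acid, was at 0.196, 0.362 and 0.133 FPKM untreated, 11.1, 12 and 10.9 FPKM at day 5, and 0.335, 0.631 and 0.374 FPKM in long-term KO. Day 5 stood far above both other groups, and untreated and long-term KO overlapped. The day 5 log2 fold change of *Zbp1* was 5.17 (SE 0.28, adjusted p = 8.31e-06), the largest among the members; the untreated values lie near the pseudocount, so this size depends on it, and the call was kept with a pseudocount of 1. *Zbp1* reached 1 FPKM in total RNA in the day 5 libraries alone, so it could be tested only because it is high there, and *Dhx58* and *Tlr3* did so in the day 5 and long-term KO libraries alone. *Mb21d1* (chromosome 9 from 78278325 to 78291044) encodes the DNA sensor cGAS. It was at 5.69, 5.99 and 5.32 FPKM untreated, 7.14, 7.38 and 7.54 FPKM at day 5, and 5.28, 5.36 and 6.05 FPKM in long-term KO. All 3 day 5 libraries were above the others, but the log2 fold change was 0.37 (SE 0.07, adjusted p = 0.00363), which is under the 2-fold threshold.

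*Eif2ak2* (chromosome 17 from 79249845 to 79281912) encodes the kinase PKR, which phosphorylates the translation factor eIF2 alpha. It was at 24.3 and 24.5 FPKM in untreated replicates 2 and 3, 53.1, 58.8 and 63.7 FPKM at day 5, and 24.5, 25 and 25.1 FPKM in long-term KO. Only day 5 was high. In untreated replicate 1 the locus ran past the gene to 79306332, with 26.4 FPKM for the joined locus, so the test rests on 2 untreated libraries there. In every siRNA and inhibitor library this locus is listed under the names of *Eif2ak2* and *Gm6548* together, so its values are those of both. At day 5 it rose by 1.26 on the log2 scale (SE 0.07, adjusted p = 3.39e-05). *Adar* (chromosome 3 from 89518944 to 89557377) was at 5.66, 6.04 and 5.86 FPKM untreated, 10.2, 10.0 and 11.4 FPKM at day 5, and 6.02, 6.00 and 6.38 FPKM in long-term KO. Every day 5 library of *Adar* exceeded every other library, while untreated and long-term KO overlapped. Its log2 fold change at day 5 was 0.84 (SE 0.06, adjusted p = 3.39e-05), short of 2-fold. Leaving out any 1 of the 3 day 5 libraries gives 5 members called, since *Zbp1* then no longer reaches 1 FPKM in enough libraries to be tested.

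The long-term KO libraries ask which changes last after 4OHT is withdrawn. Against untreated cells, 2 of the 10 members were called, *Ifih1* and *Dhx58*, both higher, against 13.7% of the 10362 genes tested, so the share of members is near that of all genes. The 3 receptors and *Tlr3* lay above untreated cells by a smaller step than at day 5. The mean of *Zbp1* was also higher, but its groups overlapped. *Mb21d1*, *Eif2ak2* and *Adar* lay near the untreated level. *Ifih1* had a log2 fold change of 1.17 (SE 0.10, adjusted p = 2.37e-05) and *Dhx58* of 1.03 (SE 0.10, adjusted p = 3.89e-05). Both sit close to the 2-fold threshold: *Dhx58* fell to 0.95 without untreated replicate 1 and also 0.95 without long-term KO replicate 1, and was then not called. With a pseudocount of 1, *Ifih1* was at 0.80 and *Dhx58* at 0.58, and under quantile normalization at 0.98 and 0.71, none of them called. *Ddx58* rose by 0.87 on the log2 scale (adjusted p = 8.77e-07) and *Tlr3* by 0.60 (adjusted p = 0.000508), with groups that did not overlap. For *Zbp1*, whose groups overlapped and whose values rest on few fragments, the log2 fold change was 0.75 (adjusted p = 0.0440), and without untreated replicate 2 it was 1.02 (adjusted p = 0.00802) and called. *Mavs* fell by 0.28 on the log2 scale (adjusted p = 0.00488) and *Tmem173* by a log2 fold change of -0.19 (adjusted p = 0.0247), both under 2-fold. The log2 fold changes of *Mb21d1*, *Eif2ak2* and *Adar* were -0.03, 0.03 and 0.07, and the value turned negative for *Eif2ak2* under median-ratio scaling and for *Adar* under quantile normalization.

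Markers also differed in long-term KO, and their part in the member values was not tested. Of 8 fibroblast markers 1 was called higher, *Pdgfrb* (34.9, 35.0 and 35.7 FPKM against 5.02, 5.13 and 4.76), and 1 lower, *Pdgfra* (2.52, 2.49 and 2.40 FPKM against 18.6, 18.6 and 18.2). Their summed level was 2345, 1816 and 2240.2 FPKM in long-term KO and 2045, 2072 and 2076 FPKM untreated, with a value for 7 of the 8 in long-term KO replicate 2. The 1 epithelial marker tested, *Epcam*, was called lower, at 0.213, 0.227 and 0.219 FPKM against 1.38, 1.05 and 1.02.

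The comparison of long-term KO with 4OHT day 5 shares its libraries with those above. All 10 members were lower in long-term KO, and 5 were called lower, against 12.3% of the 10362 genes tested called in either direction. The 5 were *Ddx58* (log2 fold change -1.35), *Ifih1* (-2.26), *Dhx58* (-2.09), *Zbp1* (-4.43) and *Eif2ak2* (-1.23), with adjusted p from 1.19e-07 to 5.28e-06. *Zbp1* could be tested only through its level at day 5, the group it is compared with here, so its call is not independent of the filter. *Tlr3* (-0.83), *Adar* (-0.77), *Mb21d1* (-0.40), *Tmem173* (-0.31) and *Mavs* (-0.23) were lower by less than 2-fold. No member's groups overlapped in this comparison. Differences were common there, since 7063 of the 10362 genes had an unadjusted p under 0.05 by limma. The share of all genes without overlap was not counted. Among fibroblast markers 2 of 8 were called higher and 1 lower, and the 1 epithelial marker tested, *Epcam*, was called lower (-2.32); their part was not tested. The median over the members was -1.03, and over all genes 0.04.

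**Figure D2:**
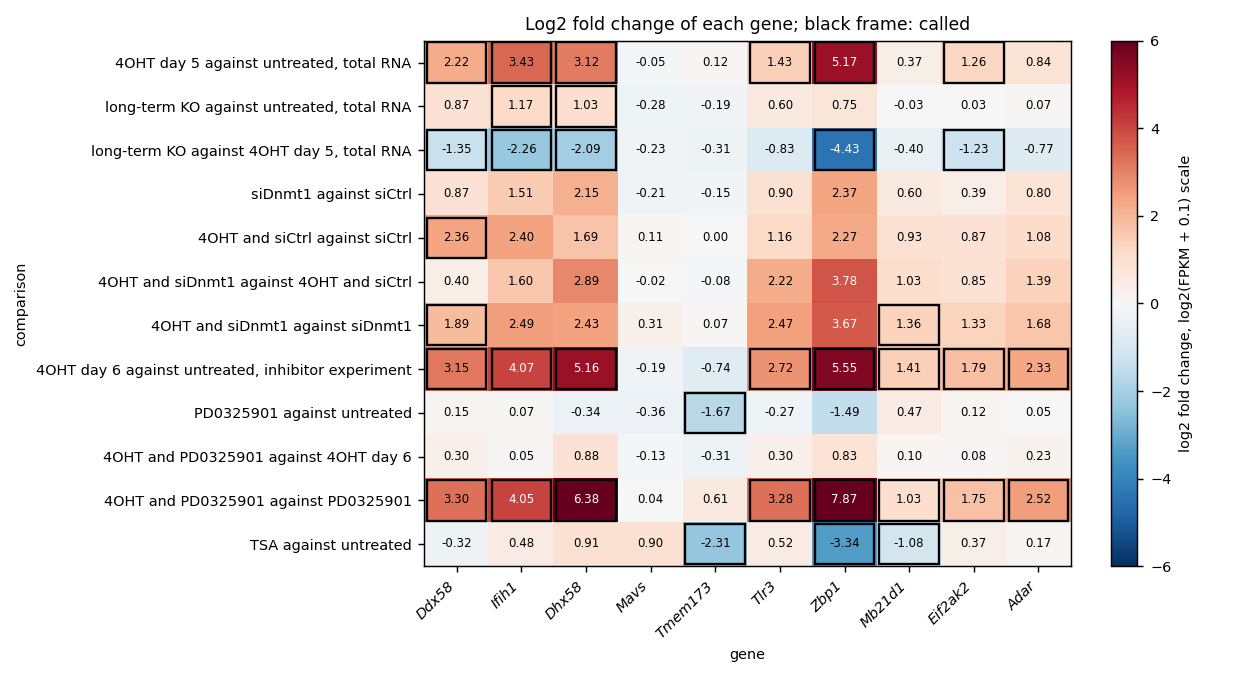
Log2 fold change (colour and number, log2(FPKM + 0.1) scale) of each member in the 12 comparisons; a black frame marks a call by limma. At 4OHT day 5 and day 6 the 8 genes other than *Mavs* and *Tmem173* have positive values, called for 6 and 8 of them. *Zbp1* is at 5.17 and 5.55, and in total RNA it passed the filter through the day 5 libraries alone. *Tmem173* is lowest with TSA, at -2.31.

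The siRNA experiment combines siRNA against *Dnmt1* with 4OHT. With siDnmt1 and without 4OHT, 7 members were higher in both libraries than in both siCtrl libraries, and *Ddx58* in the 1 library with a value. *Mavs* and *Tmem173* were lower in both. The share of all genes separated in this way was not counted. In the fit of all 8 libraries, 0 of the 10 members were called by limma, against 4.69% of the 11370 genes tested, of which 2943 had an unadjusted p under 0.05. The spread in that fit includes the library labelled 4OHT + siCtrl replicate 2. Without it, 3 members were called with siDnmt1, all higher, against 893 of the 11183 genes tested. With 2 libraries a group, an exact permutation test cannot go below p = 0.33.

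*Ifih1* was at 5.22 and 5.14 FPKM with siCtrl, 14.9 and 15.0 with siDnmt1, 62.5 and 12.2 with 4OHT + siCtrl, and 85.9 and 82.9 with 4OHT + siDnmt1. The siDnmt1 libraries lay close together above siCtrl, and 4OHT + siCtrl replicate 2 lay below them. The log2 fold change with siDnmt1 was 1.51 (SE 0.67, adjusted p = 0.221), and the same 1.51 had an adjusted p of 0.000401 without that library. *Dhx58* was at 6.27 and 5.57 FPKM with siCtrl, 28.0 and 25.3 with siDnmt1, 65.4 and 5.63 with 4OHT + siCtrl, and 180.2 and 114 with 4OHT + siDnmt1. Its 4OHT + siCtrl replicate 2 was within the siCtrl range. The log2 fold change of *Dhx58* with siDnmt1 was 2.15 (SE 1.02, adjusted p = 0.247, and 0.00438 without the library). *Zbp1* was at 4.55 and 4.84 FPKM with siCtrl, 26.4 and 23.0 with siDnmt1, 132 and 3.92 with 4OHT + siCtrl, and 414 and 241 with 4OHT + siDnmt1. Here replicate 2 of 4OHT + siCtrl was below both siCtrl libraries, and both 4OHT + siDnmt1 libraries were above all others. The siDnmt1 value was 2.37 on the log2 scale (SE 1.45, adjusted p = 0.359, and 0.00500 without the library).

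*Ddx58* was at 19.6 and 18.5 FPKM with siCtrl, 34.8 in siDnmt1 replicate 2, 97.9 in 4OHT + siCtrl replicate 1, and 139.6 and 119 FPKM with 4OHT + siDnmt1. In the other 2 libraries its locus was joined with the neighbour *Topors*, with joined values of 58.4 FPKM in siDnmt1 replicate 1 and 37.9 FPKM in 4OHT + siCtrl replicate 2, and these were not used in the test. The siDnmt1 value was 0.87 on the log2 scale (adjusted p = 0.0469, and 0.0161 without 4OHT + siCtrl replicate 2), under 2-fold. *Tlr3* was at 2.03 and 2.11 FPKM with siCtrl, 3.77 and 4.16 with siDnmt1, 12.6 and 1.74 with 4OHT + siCtrl, and 36.9 and 13.6 with 4OHT + siDnmt1. The 2 replicates of each 4OHT group were far apart, and replicate 2 of 4OHT + siCtrl was below siCtrl. *Mb21d1* was at 8.23 and 7.73 FPKM with siCtrl, 12.2 and 12.1 with siDnmt1, 20.4 and 11.5 with 4OHT + siCtrl, and 38.7 and 25.5 with 4OHT + siDnmt1. *Eif2ak2* was at 59.7 and 54.2 FPKM with siCtrl, 73.2 and 75.9 with siDnmt1, 173 and 63.1 with 4OHT + siCtrl, and 202 and 174 with 4OHT + siDnmt1. *Adar* was at 8.88 and 8.22 FPKM with siCtrl, 15.8 and 14.1 with siDnmt1, 37.9 and 8.70 with 4OHT + siCtrl, and 51.4 and 44.6 with 4OHT + siDnmt1. In each of these 3 genes the 4OHT + siDnmt1 libraries were highest, siDnmt1 was above siCtrl, and 4OHT + siCtrl replicate 2 was below both siDnmt1 libraries. The siDnmt1 values of *Tlr3*, *Mb21d1*, *Eif2ak2* and *Adar* were 0.90, 0.60, 0.39 and 0.80 on the log2 scale, with adjusted p of 0.576, 0.270, 0.609 and 0.459, and of 0.205, 0.0866, 0.0406 and 0.00918 without 4OHT + siCtrl replicate 2, all under 2-fold.

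The adaptors moved little in these libraries. *Mavs* was at 10.9 and 11.4 FPKM with siCtrl, 10.0 and 9.18 with siDnmt1, 11.6 and 12.5 with 4OHT + siCtrl, and 11.4 and 12.5 with 4OHT + siDnmt1. *Tmem173* was at 35.5 and 37.3 FPKM with siCtrl, 32.3 and 33.3 with siDnmt1, 32.3 and 41.1 with 4OHT + siCtrl, and 37.4 and 31.6 with 4OHT + siDnmt1. For both genes siDnmt1 was a little below siCtrl, with log2 fold changes of -0.21 and -0.15, and the 4OHT groups overlapped each other. In the siDnmt1 libraries, some cell type markers also differed. *Krt18* was at 17.6 and 17.8 FPKM against 0 and 0.0513 with siCtrl, and *Pdgfrb* at 7.75 and 7.52 FPKM against 34.7 and 32.5. Of the fibroblast list 1 was called higher and 1 lower, and of the 2 epithelial markers tested 1 was called higher; their part in the member values was not tested.

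With 4OHT + siCtrl against siCtrl, 1 of the 10 members was called, *Ddx58*, against 6.02% of the 11370 genes tested. Its log2 fold change of 2.36 (SE 0.15, adjusted p = 0.00491) rests on replicate 1 alone on the 4OHT side. With the joined loci used it was 1.67 (adjusted p = 0.0686) and no member was called, and without siCtrl replicate 1 or 2 it was 2.40 or 2.32 with adjusted p of 0.0539 or 0.0628. The other receptors had log2 fold changes of 2.40 (*Ifih1*, adjusted p = 0.0642) and 1.69 (*Dhx58*, adjusted p = 0.298), and *Zbp1* of 2.27 (adjusted p = 0.324). The fold changes moved with the library labelled 4OHT + siCtrl replicate 2, which was singled out by its member values. Without it 8 members were called, against 1118 of the 11183 genes tested, with log2 fold changes of 4.79 for *Zbp1*, 3.57 for *Ifih1*, 3.45 for *Dhx58*, 2.55 for *Tlr3*, 2.36 for *Ddx58*, 2.14 for *Adar*, 1.60 for *Eif2ak2* and 1.34 for *Mb21d1*. Their adjusted p ran from 7.0e-05 to 0.0251, and the remaining library was assumed to vary like the other groups. Without replicate 1 instead, only *Ifih1* of the 10 was called, at 1.22 (adjusted p = 0.00155), against 1161 of 11259 genes, *Ddx58* had no value, and *Dhx58*, *Tlr3* and *Zbp1* were at -0.07, -0.24 and -0.25. *Mavs* and *Tmem173* were at 0.11 and 0.00 with all libraries, and *Tmem173* was at -0.17 without replicate 2 and 0.18 without replicate 1. Of 8 fibroblast markers 5 were called lower with 4OHT + siCtrl, with summed levels of 2027 and 2538 FPKM against 3972 and 4048, and their part was not tested.

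**Figure D3:**
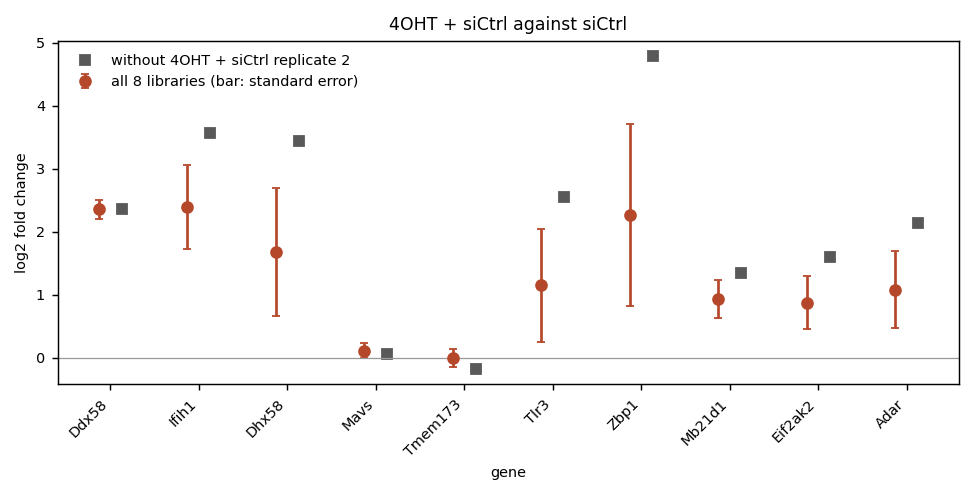
Log2 fold change of the members for 4OHT + siCtrl against siCtrl, with all 8 siRNA libraries (circles; the bar is the standard error) and without 4OHT + siCtrl replicate 2 (squares). The squares lie above the circles for 7 genes, by most for *Zbp1*, which goes from 2.27 to 4.79; *Ddx58* stays at 2.36, since it has no value in the library left out.

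With siDnmt1 added to 4OHT, the 8 members other than the adaptors were higher in both libraries than in each 4OHT + siCtrl library. For *Ddx58* only replicate 1 of the latter group has a value. How many of all genes were separated in this way was not counted. Against 4OHT + siCtrl, 0 of the 10 members were called by limma, against 1.45% of the 11370 genes tested, with 2226 genes at an unadjusted p under 0.05. The log2 fold changes were largest for *Zbp1* (3.78, SE 1.45, adjusted p = 0.226), *Dhx58* (2.89, adjusted p = 0.199) and *Tlr3* (2.22, adjusted p = 0.246). They were 1.26 for *Zbp1*, 1.13 for *Dhx58* and 0.82 for *Tlr3* without 4OHT + siCtrl replicate 2, still with 0 called by limma (340 of the 11183 genes tested were) and with adjusted p of 0.0919, 0.0845 and 0.419. Without replicate 1 instead they were 6.30, 4.65 and 3.62. Each of these fits leaves 1 library on the 4OHT + siCtrl side and takes its spread from the other groups. The size of this step therefore depends on which of the 2 libraries stands for 4OHT + siCtrl. *Tlr3* also moved with the 4OHT + siDnmt1 replicates, to 1.51 without replicate 1 and 2.94 without replicate 2. Epithelial markers were also higher in these libraries. Their summed level was 43.3 and 26.8 FPKM with 4OHT + siDnmt1, 0.968 and 5.67 with 4OHT + siCtrl, and 19.3 and 19.3 with siDnmt1, of which *Krt18* made up the most with siDnmt1 and with 4OHT + siDnmt1 (40.7 and 24.2, 0.336 and 3.67, and 17.6 and 17.8 FPKM), and their part was not tested.

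Against siDnmt1, 4OHT + siDnmt1 gave 2 called members, *Ddx58* and *Mb21d1*, both higher, against 5.57% of the 11370 genes tested. In this comparison the median log2 fold change of all genes was 0.15, which scaling moved to 0.00 (median-ratio) or -0.01 (quantile), and the members are read against that shift. *Ddx58* rose by 1.89 (SE 0.15, adjusted p = 0.0118), with 1 siDnmt1 library, whose spread is taken from the other groups, and by 1.51 (adjusted p = 0.0824) with the joined loci used. *Mb21d1* rose by 1.36 (SE 0.30, adjusted p = 0.0385). Its call was lost without siDnmt1 replicate 1 (1.37, adjusted p = 0.177), siDnmt1 replicate 2 (1.36, 0.197), 4OHT + siDnmt1 replicate 1 (1.06, 0.148) or 4OHT + siDnmt1 replicate 2 (1.66, 0.0572), and under either scaling. Without 4OHT + siCtrl replicate 2, which is in neither group but adds to the pooled spread, 8 members were called, against 1027 of the 11183 genes tested. Among them were *Zbp1* at 3.67 (adjusted p = 0.00152), *Ifih1* at 2.49 (9.6e-05), *Tlr3* at 2.47 (0.0147), *Dhx58* at 2.43 (0.00313), *Adar* at 1.68 (0.00133) and *Eif2ak2* at 1.33 (0.00159). In the fit of all libraries these 6 had the same log2 fold changes, with adjusted p from 0.0583 to 0.152. *Mavs* and *Tmem173* were at 0.31 and 0.07. Of 8 fibroblast markers 5 were called lower, with summed levels of 1844 and 2104 FPKM against 3173 and 3284 with siDnmt1.

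The interaction asks whether the effect of 4OHT differs with siDnmt1. By limma, 0 of the 10 members were called, against 0.211% of the 11370 genes tested, with 1144 genes at an unadjusted p under 0.05. The members' adjusted p ran from 0.554 to 0.985, which does not show that the effects were equal. Without 4OHT + siCtrl replicate 2, *Ifih1* was called at -1.08 (adjusted p = 0.0207), a smaller effect of 4OHT with siDnmt1, where it was 0.09 in the fit of all libraries; 99 of the 11183 genes tested were called. Without replicate 1 instead, *Ifih1* was called at 1.26 (adjusted p = 0.00741), together with *Zbp1* (3.93), *Dhx58* (2.5), *Adar* (1.65) and *Eif2ak2* (1.18), against 507 of the 11259 genes tested. The sign of the interaction for *Ifih1*, *Zbp1*, *Dhx58*, *Adar* and *Eif2ak2* thus changes with the library left out. It also changed for *Tlr3*, from 2.71 without replicate 1 to -0.08 without replicate 2, and for *Tmem173*, from -0.11 to 0.24. Each of these fits leaves 1 library of 4OHT + siCtrl, and the data do not settle the sign.

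The inhibitor experiment holds a further comparison of 4OHT, at day 6, with untreated cells, in other libraries than those above. By limma 8 of the 10 members were called, all higher, against 11.2% of the 12050 genes tested. The median log2 fold change was 2.53 over the members and -0.00 over all genes tested. The members other than *Mavs* and *Tmem173* were the ones called, and their replicates differed, with replicate 2 above replicate 1 for each of the 8. Leaving out replicate 1 or 2 of 4OHT day 6 leaves 1 library in that group, so its spread is taken from the other groups. The log2 fold changes of the 8 ran from 1.63 (*Mb21d1*) to 6.80 (*Zbp1*) without replicate 1. Without replicate 2 they ran from 1.19 (*Mb21d1*) to 4.31 (*Dhx58*).

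*Ddx58* was at 7.19 and 7.18 FPKM in untreated cells, 46.6 and 89.2 FPKM at 4OHT day 6, 7.13 and 8.92 with PD0325901, and 72.1 and 87.1 with 4OHT + PD0325901. All 4 libraries labelled 4OHT were above all others, and the log2 fold change at day 6 was 3.15 (SE 0.29, adjusted p = 0.000685). *Ifih1* was at 2.31 and 1.79 FPKM untreated, 22.0 and 57.8 at 4OHT day 6, 2.37 and 1.92 with PD0325901, and 33.9 and 40.0 with 4OHT + PD0325901. Its log2 fold change at day 6 was 4.07 (SE 0.41, adjusted p = 0.00110), and 4.76 or 3.37 without day 6 replicate 1 or 2. *Dhx58* was at 0.898 and 0.60 FPKM untreated, 16.5 and 53.7 at 4OHT day 6, 0.625 and 0.503 with PD0325901, and 48.7 and 62.0 with 4OHT + PD0325901. It was the lowest of the 3 receptors in each library without 4OHT, and the libraries labelled 4OHT were all higher. The day 6 log2 fold change of *Dhx58* was 5.16 (SE 0.49, adjusted p = 0.000886), and 6.01 or 4.31 without replicate 1 or 2.

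*Zbp1* was at 1.38 and 2.11 FPKM untreated, 35.3 and 202 at 4OHT day 6, 0.315 and 0.903 with PD0325901, and 96.1 and 236 with 4OHT + PD0325901. Its 2 day 6 libraries were farther apart in ratio than those of any other member, yet both were far above the untreated ones. The log2 fold change was 5.55 (SE 0.84, adjusted p = 0.00442), and 6.80 (adjusted p = 0.00237) or 4.29 (adjusted p = 0.0146) without replicate 1 or 2. *Tlr3* was at 1.08 and 1.17 FPKM untreated, 4.99 and 12.7 at 4OHT day 6, 0.703 and 1.18 with PD0325901, and 8.90 and 10.8 with 4OHT + PD0325901. Its groups with and without 4OHT did not overlap, and the log2 fold change at day 6 was 2.72 (SE 0.42, adjusted p = 0.00498), 3.38 or 2.06 without replicate 1 or 2. *Mb21d1* was at 5.44 and 5.39 FPKM untreated, 12.5 and 16.9 at 4OHT day 6, 8.45 and 6.75 with PD0325901, and 14.6 and 16.5 with 4OHT + PD0325901. PD0325901 libraries were above the untreated ones, and the libraries labelled 4OHT were above both. The day 6 value of *Mb21d1* was 1.41 on the log2 scale (SE 0.21, adjusted p = 0.00400).

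*Eif2ak2* was at 39.1 and 40.1 FPKM untreated, 106 and 178 at 4OHT day 6, 44.3 and 42.0 with PD0325901, and 134 and 157 with 4OHT + PD0325901. *Adar* was at 4.55 and 4.66 FPKM untreated, 17.4 and 32.1 at 4OHT day 6, 4.41 and 5.13 with PD0325901, and 23.8 and 32.3 with 4OHT + PD0325901. In both genes the libraries labelled 4OHT were all above the rest, with log2 fold changes at day 6 of 1.79 (SE 0.21, adjusted p = 0.00190) and 2.33 (SE 0.28, adjusted p = 0.00203). The deposited interval of *Adar* in PD0325901 replicate 1 is 0 to 12 FPKM, far wider than in other libraries. Set beside total RNA, *Adar* and *Mb21d1* were called here and not at day 5, where their log2 fold changes were 0.84 and 0.37. The difference between the experiments was not tested, and they differ in day, library preparation and group size.

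*Mavs* was at 12.8 and 14.0 FPKM untreated, 11.1 and 12.2 at 4OHT day 6, 10.7 and 10.1 with PD0325901, and 10.1 and 11.3 with 4OHT + PD0325901. *Tmem173* was at 51.3 and 54.4 FPKM untreated, 29.5 and 33.8 at 4OHT day 6, 14.0 and 19.6 with PD0325901, and 23.0 and 27.9 with 4OHT + PD0325901. Untreated libraries were the highest for both genes among these 4 groups, by little for *Mavs* and by much for *Tmem173*. At day 6 the log2 fold change of *Mavs* was -0.19 (adjusted p = 0.424) and that of *Tmem173* was -0.74 (SE 0.24, adjusted p = 0.0566). At total RNA day 5 *Tmem173* was 0.12, so the experiments gave values of opposite sign, neither of them called. Among fibroblast markers, 5 of 8 were called lower at 4OHT day 6, with summed levels of 2498 and 2433 FPKM against 2957 and 3208, such as *Col3a1* (19.4 and 26.1 FPKM against 302 and 308) and *Pdgfra* (2.49 and 4.46 FPKM against 31.8 and 30.7). In total RNA at day 5, 2 of 8 were called lower, *Col3a1* (90.8, 94.0 and 86.5 FPKM against 259.9, 243 and 251) and *Pdgfra* (6.78, 6.45 and 5.98 FPKM against 18.6, 18.6 and 18.2), and their part in the member values was not tested.

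PD0325901 blocks MEK, a kinase of the MAPK route. With PD0325901 alone, 7.10% of the 12050 genes tested were called, and the members' share was near that of all genes. The 1 member of the 10 called was *Tmem173*, which was lower. Its log2 fold change was -1.67 (SE 0.24, adjusted p = 0.00512), and both libraries were below both untreated ones. *Zbp1* was also lower in both, at -1.49 (SE 0.84, adjusted p = 0.288), moving to -0.85 or -2.12 without PD0325901 replicate 1 or 2. *Mb21d1* was at 0.47 (adjusted p = 0.179) and *Mavs* at -0.36 (adjusted p = 0.190), with groups that did not overlap. The receptors *Ddx58*, *Ifih1* and *Dhx58* were at 0.15, 0.07 and -0.34, with groups that overlapped. Of 8 fibroblast markers 2 were called higher and 0 lower, with summed levels of 4588 and 4971 FPKM against 2957 and 3208, and their part was not tested.

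When PD0325901 was added to 4OHT, 0 of the 10 members were called by limma against 4OHT day 6, against 3.65% of the 12050 genes tested, with 2689 genes at an unadjusted p under 0.05. The log2 fold changes ran from -0.31 for *Tmem173* (adjusted p = 0.487) to 0.88 for *Dhx58* (adjusted p = 0.342), and *Zbp1* was at 0.83 (adjusted p = 0.608). The groups overlapped for 9 of the 10 members, all but *Tmem173*. Without 4OHT day 6 replicate 2, *Dhx58* was at 1.73 (adjusted p = 0.0376) and called, the 1 member among 355 of 11930 genes, and without replicate 1 it was at 0.03. *Zbp1* was at -0.42 without replicate 1 and 2.09 without replicate 2, and *Ddx58*, *Ifih1*, *Tlr3*, *Mb21d1*, *Eif2ak2* and *Adar* also turned negative without replicate 1. Of 8 fibroblast markers 3 were called higher and 1 lower.

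Against PD0325901 alone, 4OHT + PD0325901 gave 8 called members, all higher, against 4.56% of the 12050 genes tested. Fibroblast markers were lower, 2 of 8 called, with summed levels of 2937 and 2996 FPKM against 4588 and 4971, and their part was not tested. The members called were the same 8 genes as at 4OHT day 6, in libraries of which none is shared with that comparison. Side by side, the log2 fold changes without and with the inhibitor were 3.15 and 3.30 for *Ddx58*, 4.07 and 4.05 for *Ifih1*, 5.16 and 6.38 for *Dhx58*, and 2.72 and 3.28 for *Tlr3*. They were 5.55 and 7.87 for *Zbp1*, 1.41 and 1.03 for *Mb21d1*, 1.79 and 1.75 for *Eif2ak2*, and 2.33 and 2.52 for *Adar*. The adjusted p with the inhibitor ran from 0.000753 to 0.0252. *Mb21d1* lost its call without PD0325901 replicate 2 (0.87, adjusted p = 0.120), 4OHT + PD0325901 replicate 1 (1.12, 0.0637) or replicate 2 (0.94, 0.105), and with a pseudocount of 1 (0.95), median-ratio scaling (0.92), quantile normalization (0.93) or a fit of only the groups compared (1.03, 0.0678). For *Zbp1* the value moved between 7.22 and 8.52 as the libraries labelled PD0325901 or 4OHT + PD0325901 were left out in turn. Its PD0325901 values, 0.315 and 0.903 FPKM, lie near the pseudocount, so the size of 7.87 and its gap from 5.55 depend on it. *Tmem173* was at 0.61 (SE 0.24, adjusted p = 0.160) and *Mavs* at 0.04, which was -0.07 at its lowest under other settings.

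The interaction of 4OHT and PD0325901 tests whether the inhibitor alters the effect of 4OHT. By limma, 0 of the 10 members were called, against 0.598% of the 12050 genes tested, with 1896 genes at an unadjusted p under 0.05. The largest in relation to its error was *Tmem173*, at 1.35 (SE 0.34, adjusted p = 0.124). It was lower with 4OHT than without in the absence of the inhibitor and higher in its presence. *Zbp1* was at 2.32 (adjusted p = 0.401) and *Dhx58* at 1.22 (adjusted p = 0.456). Both moved with the 4OHT day 6 libraries, *Zbp1* to 1.07 and *Dhx58* to 0.37 without replicate 1, and to 3.58 and 2.07 without replicate 2.

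TSA, which raises histone acetylation, was given without 4OHT and shares the untreated libraries with the comparisons above. It lowered 3 of the 10 members past the threshold, *Tmem173*, *Zbp1* and *Mb21d1*, and raised none past it, against 31.7% of the 12050 genes tested, so the members' share is near that of all genes. *Tmem173* was at 13.3 and 8.47 FPKM with TSA against 51.3 and 54.4 FPKM untreated. Both TSA libraries were below the other 25 libraries of the series, of which PD0325901 replicate 1, at 14.0 FPKM, was the nearest. With TSA it changed by -2.31 on the log2 scale (SE 0.24, adjusted p = 0.000161). *Mb21d1* was at 2.81 and 2.24 FPKM against 5.44 and 5.39, the lowest of the 27 libraries, with a log2 fold change of -1.08 (SE 0.21, adjusted p = 0.00303). Without TSA replicate 2 it was -0.92, and with a pseudocount of 1 it was -0.87, and not called. *Zbp1* was at 0.126 and 0.0407 FPKM against 1.38 and 2.11, also its lowest in the series. Its log2 fold change of -3.34 (SE 0.84, adjusted p = 0.0108) rests on few fragments, and the deposited intervals overlap: 0 to 0.498 and 0 to 0.261 FPKM with TSA, 0 to 5.14 FPKM in untreated replicate 1. It lost its call without untreated replicate 2 (-3.05, adjusted p = 0.0588) or TSA replicate 2 (-3.0, adjusted p = 0.0629). With a pseudocount of 1 it was -1.33 (adjusted p = 0.159), so the size depends on the pseudocount, near which the TSA values lie.

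*Mavs* was higher with TSA, at 21.6 and 29.1 FPKM against 12.8 and 14.0 FPKM. Both TSA libraries were above all other 25 libraries of the series, with a log2 fold change of 0.90 (SE 0.16, adjusted p = 0.00214), under 2-fold. Without TSA replicate 1 it was 1.12 (adjusted p = 0.00201) and called. None of the receptors was called with TSA, with *Ddx58* at 6.31 and 5.23 FPKM, *Ifih1* at 3.31 and 2.51, and *Dhx58* at 1.35 and 1.61. Both TSA libraries were below the untreated ones for *Ddx58* and above them for *Ifih1* and *Dhx58*, with log2 fold changes of -0.32, 0.48 and 0.91 and adjusted p from 0.152 to 0.373. *Tlr3* was at 1.57 and 1.74 FPKM, *Eif2ak2* at 49.8 and 52.5, and *Adar* at 5.17 and 5.21. These 3 genes were above untreated cells in both TSA libraries, with log2 fold changes of 0.52, 0.37 and 0.17, and those of *Tlr3* and *Dhx58* were negative, -0.33 and -0.14, under quantile normalization. In the TSA libraries markers of other cell types were higher, such as *Cd68* (66.9 and 60.5 FPKM against 4.90 and 4.27) and *Epcam* (28.1 and 29.2 FPKM against 0.839 and 1.09), and 4 of 8 fibroblast markers were called lower and 2 higher. Haematopoietic *Ptprc* and *Cd3e* stayed at 0.131 FPKM or less, and the part of these changes in the member values was not tested.

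**Figure D4:**
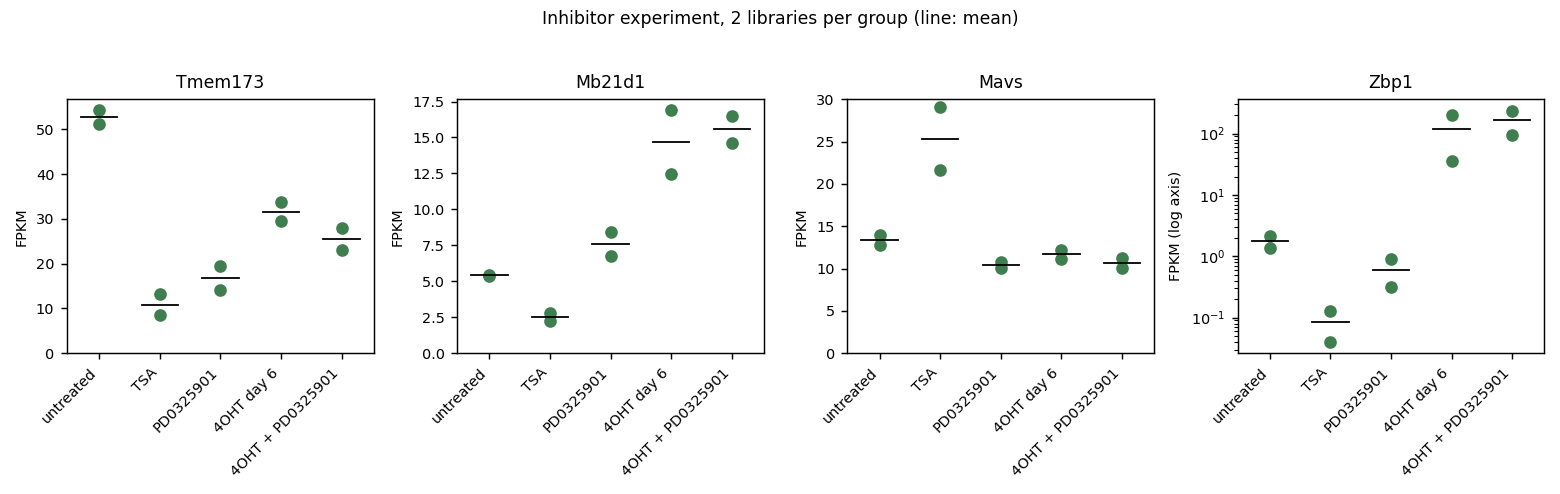
FPKM of *Tmem173*, *Mb21d1*, *Mavs* (linear axes from 0) and *Zbp1* (log axis) in the 5 groups of the inhibitor experiment; each dot is 1 of 2 libraries and the line is their mean. *Tmem173* falls from 51.3 and 54.4 FPKM in untreated cells to 13.3 and 8.47 FPKM with TSA, where *Mavs* is highest, at 21.6 and 29.1 FPKM.

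Further genes of these pathways were taken from 7 lists of 69 genes. Their counts are read against the shares of all genes called, 3.36% at 4OHT day 5, 13.7% in long-term KO, 4.69% with siDnmt1, 6.02% with 4OHT + siCtrl, 11.2% at 4OHT day 6 and 31.7% with TSA. In the list of RIG-I-like receptor and Tlr3 signalling, 1 of the 16 genes tested was called higher at 4OHT day 5 and 0 lower, with a median log2 fold change of 0.15. The gene was *Trim25*, a ubiquitin ligase that activates RIG-I, at 4.78, 5.30 and 5.23 FPKM untreated and 14.0, 13.6 and 13.7 FPKM at day 5. It was back at 5.25, 5.10 and 4.98 FPKM in long-term KO, where 0 of the 16 were called. At 4OHT day 6, 3 of 17 were called higher and 0 lower (median 0.02): *Trim25* (1.75), *Zc3hav1* (1.40) and *Rnf135* (1.20). *Zc3hav1* was also the 1 gene of this list called with 4OHT + siCtrl, at 1.24, with 1 library on the 4OHT side. With siDnmt1, 0 of 17 were called. TSA called 1 of 17 higher, *Ticam1* (1.08), and 3 lower, *Nfkb1* (-2.23), *Nlrx1* (-1.33) and *Rnf135* (-1.22). The kinases and transcription factors *Tbk1*, *Irf3* and *Rela* were called in none of these comparisons.

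Of the cell death partners of Zbp1, 0 of 4 tested were called at 4OHT day 5 (median 0.22) or in long-term KO (median 0.41). *Mlkl*, which forms the pores of necroptosis, was at 12.8 and 14.4 FPKM untreated and 30.8 and 59.9 FPKM at 4OHT day 6, the 1 of 4 called there (1.66, adjusted p = 0.00709), and it was the 1 of 5 called with 4OHT + siCtrl (1.52, adjusted p = 0.0461). Both day 6 libraries of *Mlkl* were above the untreated ones, with replicate 2 higher as for the members. *Ripk3*, the kinase that joins Zbp1 to Mlkl, was at 0.184 and 0.442 FPKM with siCtrl and 6.56 and 6.46 FPKM with siDnmt1, the 1 of 5 called (4.08, adjusted p = 0.0294). No siCtrl library reached 1 FPKM, so *Ripk3* was tested through the other groups, and values so near the pseudocount make the size depend on it. With 4OHT + siCtrl it was at 0.345 and 1.67 FPKM and not called. In the inhibitor experiment it was at 0.513 and 0.196 FPKM at 4OHT day 6 against 0.295 and 0.375 FPKM untreated, under the filter and not tested. TSA called 0 of 4 higher and 2 lower, *Fadd* (-1.62) and *Casp8* (-1.04).

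In the list of DNA sensing and nucleic acid clearance, 1 of 9 was called higher at day 5 and 0 lower (median -0.02), *Ifi204*, at 0.898, 0.833 and 0.725 FPKM untreated and 9.50 and 9.88 FPKM in the 2 day 5 libraries with a value. It reached 1 FPKM in total RNA in the day 5 and long-term KO libraries alone and was tested through them. Long-term KO called 2 of 9 higher, *Ifi204* (1.20) and *Dnase2a* (1.20), and 2 lower (median 0.38). The lower ones were *Enpp1* (-2.53), which degrades cGAMP, and *Rnaseh2a*, which was listed at 0 in both long-term KO libraries with a value and also in day 5 replicate 3; a listed 0 may be a failed estimate, and no fold is given. *Enpp1* was at 4.55, 4.21 and 4.02 FPKM untreated, 2.32, 2.58 and 2.43 FPKM at day 5, and 0.778, 0.725 and 0.494 FPKM in long-term KO, so it fell at each step. It was also the 1 of 8 called with siDnmt1, where it was higher (1.20, adjusted p = 0.0499), and with 4OHT + siCtrl, where it was lower (-1.34, adjusted p = 0.0277). At 4OHT day 6, 1 of 8 was called, *Trex1* (1.23), whose locus is joined with *Atrip*. TSA called 1 of 8 higher, *Dnase2a* (1.24), and 1 lower, *Rnaseh2b* (-1.55).

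Of the stress arm of PKR, 0 of 8 were called at day 5 (median -0.01), and 2 lower in long-term KO, *Atf4* (-1.57) and *Ppp1r15a* (-1.26). *Ppp1r15a* was at 22.8, 23.0 and 24.8 FPKM untreated and 9.93, 9.55 and 9.70 FPKM in long-term KO. *Atf4* had a value in 2 untreated libraries (316 and 303 FPKM) and 1 long-term KO library (104 FPKM), so its call takes the spread of long-term KO from the other groups. *Ddit3* was called higher at 4OHT day 6, with 4OHT + siCtrl and with TSA, but was listed at 0 in every library of the control groups and of total RNA, so no fold is given. It was at 44.6 and 87.1 FPKM at 4OHT day 6, 113 and 37.3 with 4OHT + siCtrl and 94.5 and 85.0 with TSA, and a listed 0 may be a failed estimate. *Eif2ak3* was lower at day 6 (-1.04), and 0 of 9 were called with siDnmt1.

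Among other RNA editing and double-stranded RNA binding genes, 1 of 8 was called higher at day 5 and 0 lower (median -0.06), *Ddx60*, a helicase that aids RIG-I. It was at 0.0352, 0.0296 and 0.0499 FPKM untreated, 2.61, 2.98 and 2.68 FPKM at day 5, and 0.581, 0.445 and 0.401 FPKM in long-term KO, the same order as the receptors. Like *Zbp1*, it reached 1 FPKM in total RNA in the day 5 libraries alone and was tested through them. It was called higher in long-term KO (2.05) and at 4OHT day 6 (5.67). Its untreated values lie under or near the pseudocount, so these sizes depend on it and the long-term KO call may, and no other pseudocount was tried for this gene. *Adarb1* encodes a further editing enzyme. It was at 13.9, 15.4 and 13.7 FPKM untreated, 6.84, 7.66 and 8.80 FPKM at day 5, and 2.59, 2.37 and 2.64 FPKM in long-term KO, its log2 change being -2.45 (adjusted p = 3.33e-07) in the latter against untreated cells and -1.15 (adjusted p = 0.0149) at 4OHT day 6, where *Adar* was higher. With siDnmt1 and with 4OHT + siCtrl 0 of 8 were called by limma, and the TSA result of this list is not given.

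The other Toll-like receptors were scarcely detected, with 2 or 3 of 8 tested. None was called at day 5, in long-term KO, with siDnmt1, with 4OHT + siCtrl or at 4OHT day 6 by limma, and *Tlr1* was called higher with TSA (2.11), at 1.21 and 0.979 FPKM against 0.141 and 0.217. Of 12 interferon ligands, 0 were tested in total RNA and 2 in each other experiment. *Ifnb1* was listed at 0 in all untreated and long-term KO total RNA libraries and was at 0.0778, 0.0798 and 0.165 FPKM at day 5. It was listed at 0 with siCtrl, at 0.738 and 0.214 FPKM with siDnmt1, 4.08 and 0.727 with 4OHT + siCtrl, and 26.2 and 8.54 with 4OHT + siDnmt1. In the inhibitor experiment it was at 1.01 and 2.03 FPKM at 4OHT day 6, 3.41 and 2.51 with 4OHT + PD0325901, and listed at 0 in the other 6 libraries. *Ifnb1* thus was detected in every library labelled 4OHT except those of long-term KO, and was called higher with 4OHT + siCtrl (adjusted p = 0.0355) and at 4OHT day 6 (adjusted p = 0.00062), where the control was at 0. It reached 1 FPKM in libraries labelled 4OHT alone, so it could be tested only because it is high there. Neither interaction called a gene of these 7 lists by limma.

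The members fell into those that moved together and those that did not. Over the 27 libraries, with the mean of each experiment subtracted, Pearson's r of log2(FPKM + 0.1) between the 8 members other than the adaptors was 0.795 to 0.978. For *Mavs* r with these 8 was negative, and *Tmem173* had r of 0.122 to 0.402 with them. The libraries share groups and 27 points are not 27 independent samples (25 for *Ddx58* and 26 for *Eif2ak2*), so these values describe the data and carry no test. The gene most like *Ddx58* by this measure, among 8547 genes, was *Ddx60* (r 0.993), followed by *Ifi44* (0.990) and *Mx1* (0.986). Nearest to *Ifih1* were *Rsad2* (0.992), *Apol9a* (0.985) and *Apol9b* (0.983), and nearest to *Dhx58* were *Mx2* (0.990), *Bst2* (0.985) and *Oas2* (0.981), among 8546 genes. *Zbp1* was most like *Parp14* (0.983), the joined locus of *Ifi47* and *Olfr56* (0.979) and *Ifit1* (0.974). For *Tlr3* they were *Ube2l6* (0.982), *Trim14* (0.973) and *Adar* (0.972), for *Adar* *Ube2l6* (0.982), *Daxx* (0.975) and *Tlr3* (0.972), and for *Eif2ak2* *Ifih1* (0.975), *Oas2* (0.974) and *Trim25* (0.973). *Mb21d1* was nearest to *2700062C07Rik* (0.947), *Ogfr* (0.946) and *Sbds* (0.943), *Mavs* to *Hdgfrp2* (0.956), *Fgd6* (0.949) and *Paf1* (0.948), and *Tmem173* to *Irf2bpl* (0.922), *Hmmr* (0.922) and *Xrcc5* (0.900).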

How the data were processed

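RNA-seq of 27 libraries (12 groups, 3 experiments) was used. The authors mapped reads to mm9 with TopHat2 2.0.12 and deposited Cufflinks FPKM per library; their Cuffdiff tables (2 files of group comparisons: group FPKM, fold changes, p and q of loci marked significant) were not used. Total RNA loci were matched to genes by position (bedtools 2.31.1, at least 95% of the gene covered); joined loci were missing values, except names joined in every siRNA and inhibitor library (*Eif2ak2* with *Gm6548*, *Trex1* with *Atrip*, *Ifi47* with *Olfr56*), which were kept as 1 locus. Genes with 1 FPKM in at least 3 (total RNA) or 2 libraries were tested with limma 3.58.1 (R 4.3.3; moderated, trended, two-sided) on log2(FPKM + 0.1), all groups of an experiment in one model, Benjamini-Hochberg over all genes tested; 12 comparisons and 2 interactions. Groups follow the labels. Python 3.11.15, numpy 2.4.6, pandas 2.3.3 and matplotlib 3.10.9 served for tables and plots; the procedure was tested on simulated data. Alternatives changed the pseudocount, filter, scaling, replicates, threshold and joined loci. Genes named are the 10 members, *Setdb1*, *Dnmt1*, the list genes called in 6 treatment-control comparisons (4OHT day 5, long-term KO, 4OHT + siCtrl, 4OHT day 6, siDnmt1, TSA; the 3 largest per list first; the TSA result of 1 list is left out) and the 3 genes most correlated with each member; markers and other genes were named after their values were seen. Members and lists were chosen with earlier results of these data known.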

Additional observations from a re-analysis of the deposited data

How the results depend on the processing

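Of 2293 member values under alternatives, 2144 kept their direction and side of the threshold, 30 lost a call, 55 gained one, 63 changed sign without a call and 1 reversed: *Ifih1* in the interaction of 4OHT and siDnmt1, -1.08 without 4OHT + siCtrl replicate 2 (range over libraries left out -1.08 to 1.26); the cause was not tested. Members called in long-term KO against untreated went from 2 to 0 (pseudocount 1), 1 (median-ratio scaling), 0 (quantile normalization) and 7 (adjusted p alone), and to 1 to 3 with a library left out. Against day 5 they went from 5 to 10 (adjusted p alone). By limma, 7171 of the 10362 genes tested against untreated and 7063 against day 5 had an unadjusted p under 0.05. Passing by p alone was therefore common. With any day 5 library left out, *Zbp1* was not tested in the comparison with day 5 and lost its call. With siDnmt1 the count by limma went from 0 (2943 genes at an unadjusted p under 0.05) to 3 (only the groups compared), 1 (adjusted p alone) and 0 to 3 (left out); with 4OHT + siCtrl from 1 to 0 (joined loci used) and 0 to 8 (left out). For 4OHT + siDnmt1 against 4OHT + siCtrl it was 0 by limma (2226 genes at an unadjusted p under 0.05) and 0 to 7 with a library left out, and against siDnmt1 it went from 2 to 1 (either scaling), 8 (only the groups compared), 1 (joined loci used) and 0 to 8 (left out). The siDnmt1 interaction gave 0 by limma (1144 genes at that p) and 0 to 5 with a library left out, and 4OHT + PD0325901 against 4OHT day 6 gave 0 (2689 genes) and 0 to 1. TSA went from 3 to 1 (pseudocount 1) and 1 to 4 (left out). In the siRNA and inhibitor experiments, a count with a library of a compared group left out rests on 1 library in that group. Other counts here stand without the share of all genes called under the same setting, and causes were not tested.

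At 4OHT day 6 the count was 8 under every alternative that kept both libraries of the groups compared. It was 5 to 8 at day 5 and 7 to 8 for 4OHT + PD0325901 against PD0325901. The labels do not say that a replicate number marks a shared culture. Same-numbered libraries had a residual r of 0.206 to 0.260 among the PD0325901, 4OHT day 6 and 4OHT + PD0325901 groups, as a hint of pairing there, and of -0.062 to 0.126 in the other 2 experiments. With the replicate as a block every count of members called stayed as it was, such as 6 at day 5, 8 at day 6 and, by limma, 0 for 4OHT + PD0325901 against 4OHT day 6 (491 of 12050 genes called). Fitting only the groups compared does not apply to the siDnmt1 interaction, which uses all groups of its experiment. The share of called genes that were higher moved under quantile normalization from 63.2% to 53.0% at day 5, from 59.8% to 48.8% with TSA and from 60.3% to 39.0% for 4OHT + siDnmt1 against siDnmt1. Using joined loci, and fits without 4OHT + siCtrl replicate 2 or PD0325901 replicate 2 in comparisons that do not use them, were chosen after seeing the data. Groups of 2 or 3 libraries, 1 line, label conflicts and low levels of *Zbp1* and *Dhx58* in some libraries limit every result.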
